A study of Mus musculus with 4 samples.

Results

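ARID1A peaks were examined in 5 stretches of the mouse genome that were set around pancreatic digestive enzyme genes. In the mm9 build these were chr6:30500000-30700000 for Cpa1, chr6:41200000-41600000 for Prss2 and the trypsinogen cluster, chr2:28310000-28520000 for Cel, chr8:114110000-114320000 for Ctrb1 and chr15:100400000-100620000 for Cela1, 1.24 Mb in all. A peak was a member where it overlapped a window by at least 1 bp. The 4 peak lists of the series held 43 member peaks, 10 in control replicate 1, 33 in control replicate 2 and 0 in either list from cells given epidermal growth factor (EGF). Peaks that overlapped between the lists were joined, which gave 36 regions in the windows of 8206 in the whole series. The windows were set by the position of the genes, by a rule that uses no peak value, although earlier results of these data were known when the genes were chosen.

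The series profiled ARID1A by chromatin immunoprecipitation with sequencing (ChIP-seq) in 266-6 cells, an established mouse pancreatic acinar line. Per the labels, all cells grew in medium with 4.5 g/L glucose and 10% fetal calf serum and were then kept without serum for about 14 h. Both groups are listed with 0.1% bovine serum albumin. The EGF group (n = 2 libraries) received 40 ng/ml EGF for 8 h, and for the control group (n = 2) no EGF is listed. The labels speak of duplicates and do not say whether these were grown apart, so p-values here reflect just the spread of these libraries, which may be technical. All 4 libraries are of 1 cell line, and the peak lists hold no expression values, so the acinar label was not checked here and the activity of the enzyme genes in these cells is not known from these data.

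Acinar cells make the enzymes that digest food in the gut and store most of the proteases as inactive zymogens. Cpa1 encodes carboxypeptidase A1, which removes amino acids from the carboxyl end of peptides. Prss2 encodes an anionic trypsinogen and lies in a cluster of related trypsinogen genes, and trypsin activates the other zymogens. Ctrb1 encodes a chymotrypsinogen, Cela1 an elastase precursor, and Cel the bile salt-activated carboxyl ester lipase. Transcription of such genes in acinar cells depends on PTF1, a complex of the basic helix-loop-helix factor PTF1A with an E protein and RBPJ, and on the nuclear receptor NR5A2. ARID1A is a DNA-binding subunit of the BAF form of the SWI/SNF complexes, which move nucleosomes at promoters and enhancers.

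The promoters of the 5 genes are shown because the windows were set around these genes. The sequences are from RefSeq in build GRCm38.p6, from 250 bases before to 50 after the annotated start, and run 5′ to 3′ along the gene. This is not the build of the peaks. No position was carried from one build to the other, so whether a peak lies on one of these promoters, in an exon, in an intron or between genes was not determined here. Capitals mark the letters CACCTG, an E-box, and TTTCCC, the core of the element bound by RBPJ in PTF1 sites, on either strand (CAGGTG and GGGAAA when read on the opposite strand).
Cpa1: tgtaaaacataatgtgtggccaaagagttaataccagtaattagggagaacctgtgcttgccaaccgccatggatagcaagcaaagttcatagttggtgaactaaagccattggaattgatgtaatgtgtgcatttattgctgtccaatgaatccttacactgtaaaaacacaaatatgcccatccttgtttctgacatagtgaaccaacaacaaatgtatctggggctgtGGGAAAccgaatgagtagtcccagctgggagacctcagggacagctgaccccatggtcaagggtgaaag
Prss2: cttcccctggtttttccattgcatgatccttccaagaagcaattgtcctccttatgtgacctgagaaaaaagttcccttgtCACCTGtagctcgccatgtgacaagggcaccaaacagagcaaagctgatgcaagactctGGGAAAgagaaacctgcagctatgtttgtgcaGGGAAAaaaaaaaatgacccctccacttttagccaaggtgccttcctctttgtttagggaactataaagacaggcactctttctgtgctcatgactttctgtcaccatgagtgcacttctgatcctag
Ctrb1: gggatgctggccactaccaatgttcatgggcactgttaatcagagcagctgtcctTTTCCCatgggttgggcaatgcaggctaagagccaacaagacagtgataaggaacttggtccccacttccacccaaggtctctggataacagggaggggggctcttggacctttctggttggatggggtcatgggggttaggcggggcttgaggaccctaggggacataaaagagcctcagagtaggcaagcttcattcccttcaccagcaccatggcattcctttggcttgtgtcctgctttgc
Cela1: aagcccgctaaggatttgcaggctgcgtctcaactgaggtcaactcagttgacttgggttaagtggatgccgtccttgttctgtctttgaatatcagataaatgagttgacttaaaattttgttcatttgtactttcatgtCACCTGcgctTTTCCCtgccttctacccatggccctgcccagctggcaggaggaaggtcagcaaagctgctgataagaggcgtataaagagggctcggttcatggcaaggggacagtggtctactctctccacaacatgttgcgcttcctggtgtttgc
Cel: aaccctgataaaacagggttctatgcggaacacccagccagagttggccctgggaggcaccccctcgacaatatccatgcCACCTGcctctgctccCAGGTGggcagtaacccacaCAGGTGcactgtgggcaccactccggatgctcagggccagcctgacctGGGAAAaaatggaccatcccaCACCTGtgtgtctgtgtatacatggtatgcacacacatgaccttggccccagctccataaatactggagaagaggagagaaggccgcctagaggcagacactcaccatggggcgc
In GRCm38.p6 these lie at chr6:30638968-30639267 on the plus strand, chr6:41521526-41521825 on the plus strand, chr8:111690961-111691260 on the minus strand, chr15:100687871-100688170 on the minus strand and chr2:28563354-28563653 on the minus strand.

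TTTCCC was present in all 5 promoters, against 25.3% of 32544 RefSeq promoters of the same length. CACCTG was present in those of Prss2, Cela1 and Cel, against 20.3% of all, and both motifs together were found in 4.88% of all promoters. In Cela1 CACCTG began 109 bases before the start and TTTCCC 99 bases before it. Other forms of the E-box, such as CAGCTG, were not searched. In the Ctrb1 sequence above, CAGCTG stands before TTTCCC at the same spacing as CACCTG does in Cela1. In Cel, CACCTG occurred 4 times over both strands. The letters AAGGTCA, which NR5A2 binds, were found on either strand in Cela1 and Cel (4.71% of all promoters), TATAAA in Prss2 and Cela1 (13.6%), and the AP-1 letters TGANTCA in 0 of the 5 (7.79%). The matches of the searched motifs did not overlap each other in these 5 promoters. Among the trypsinogen genes that neighbour Prss2, the promoters of Prss1, Prss3, Try4, Gm5771 and Gm10334 were 55.8% to 61.0% identical to that of Prss2 in a gapped global alignment, and the promoters of the other 4 members 49.3% to 50.3%.

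In control cells ARID1A peaks were found in each of the 5 windows, and they were denser there than over the rest of the genome. Control replicate 1 had a peak in 4 of the 5 windows and control replicate 2 in all 5. The genome was divided into consecutive tiles between the first and the last peak of each chromosome. Of the 200 kb tiles, 19.8% held a peak in control replicate 1 and 27.9% in control replicate 2, and of the 400 kb tiles, the length of the trypsinogen window, 32.1% and 41.7% did. Peaks lay at 8.06 per Mb of window in control replicate 1 (exact Poisson interval 3.87 to 14.8) and at 26.6 in control replicate 2 (18.3 to 37.4), against 1.59 and 2.81 per Mb outside the windows. The density was thus 5.06 times that of the rest in control replicate 1 and 9.48 times in control replicate 2. All intervals in the text are 95% intervals for counting error alone. The tiles include stretches without genes and were not matched to the windows for gene content, so how much of the excess goes with genes in general was not tested.

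**Figure D1:**
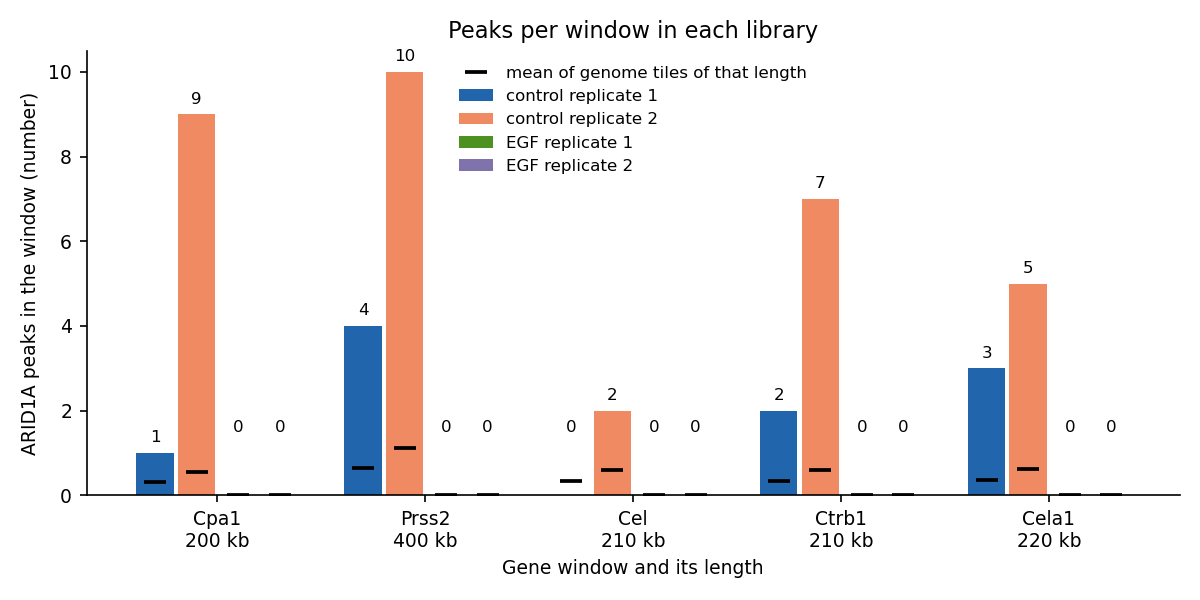
Number of ARID1A peaks (vertical axis) in each gene window (horizontal axis) in the 4 libraries, 1 bar per library; black dashes give the mean number in genome tiles of the same length in that library. The control bars stand above the dashes except at Cel in control replicate 1, and every EGF bar is at 0.

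The Cpa1 window had the largest difference in number of peaks between the control lists. It had 1 peak in control replicate 1, and control replicate 2 had 9. In control replicate 2, 0.191% of the 200 kb tiles held at least 9 peaks. In control replicate 1, a tile with at least 1 peak was no rarity (19.8%). The region called in both lists lay at chr6:30525047-30525347, where the deposited fold was 5.98 in control replicate 1, against 8.15 in control replicate 2. The deposited fold is the authors' value for summit reads over local background, with 1 added to each. The largest fold of the window, 8.62, was at chr6:30644163-30644379, 11.4 kb beyond the peak at chr6:30632405-30632810 with 7.87, and both were called in control replicate 2 alone. Its other peaks of that list were at chr6:30520200-30520445 with a fold of 6.92, in a run of 3 peaks between chr6:30588420 and 30589429 with 4.95, 4.98 and 6.03, and in a run of 2 between chr6:30624061 and 30624518 with 3.73 each. The peaks of these runs were 256 bp, 72 bp and 58 bp apart, so the 9 peaks mark fewer separate places. The nearest peak outside the window was 2.0 kb from its edge in control replicate 2 and 68.5 kb in control replicate 1.

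The trypsinogen window had peaks in both control lists, but they ranked low in control replicate 1. It held 4 peaks in control replicate 1, and control replicate 2 had 10, and 4.0% and 0.699% of the 400 kb tiles held at least as many. Both lists had a peak at chr6:41238879-41239174, with a fold of 5.62 (control replicate 1) and 5.84 (control replicate 2), and at chr6:41329725-41330065, with 5.34 and 4.78. The 4 peaks of control replicate 1 were at percentiles 12.9 to 37.7 of that list by score, the authors' −log10 q times 10 without its decimals. In control replicate 2 the peaks with the largest folds were at chr6:41424574-41425090 with 8.11, at chr6:41264727-41264993 with 7.64 and at chr6:41284546-41284996 with 7.15, and none of these 3 was called in control replicate 1. At chr6:41491568-41491837 in control replicate 1, with a fold of 4.76, and chr6:41491842-41492041 in control replicate 2, with 6.94, the peaks of the lists missed each other by 4 bp and were counted as separate regions. The remaining peaks were at chr6:41471387-41471769 in control replicate 1, with 4.68, and in control replicate 2 at chr6:41239258-41239509 with 6.32, chr6:41397216-41397675 with 5.94, chr6:41398463-41398729 with 5.17 and chr6:41469941-41470143 with 5.35. The annotation lists 8 trypsinogen or trypsinogen-like genes in this cluster, from Try4 to Prss2. In the sources used here it is not stated how the authors treated reads that match more than 1 of these related copies.

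The Ctrb1 window held 2 peaks in control replicate 1, and control replicate 2 had 7. These were 11.3 and 19.0 times the mean of the 210 kb tiles of chromosome 8, the highest such ratio of the 5 windows in each list, ahead of 5.29 in the trypsinogen window and 13.2 at Cpa1. At least as many were found in 7.68% and 0.717% of the 210 kb tiles of the genome, and in 4.11% and 0.493% of those of chromosome 8, which is sparse in peaks. Both peaks of control replicate 1 were also called in control replicate 2. The wider of these regions, at chr8:114219190-114219928, was the widest of all 36 with 739 bp, and had a fold of 7.01 (control replicate 1) and 8.62 (control replicate 2). The other, at chr8:114250087-114250643, had 6.38 and 7.30. The 5 peaks called in control replicate 2 alone had folds of 4.18 to 5.94, below both of the shared ones. Zfp1 and Bcar1 are the protein-coding genes next to Ctrb1 in the annotation.

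The Cela1 window held the strongest peak of the set by score, fold and summit reads, but not by reads over local input. It had 3 peaks in control replicate 1, and control replicate 2 had 5, numbers reached by 3.29% and 2.45% of the 220 kb tiles of the genome, and by 9.91% and 7.93% of those of chromosome 15, where peaks are dense. The region at chr15:100518253-100518677 had a fold of 7.50 (control replicate 1) and 8.72 (control replicate 2) and lay at percentiles 92.2 and 97.1 of the lists by score. The region at chr15:100591764-100592247, also called in both, had 6.97 and 7.25. The peak at chr15:100403960-100404259 was called in control replicate 1 alone, with 6.65, and lay 3.96 kb inside the edge of the window. Control replicate 2 alone had peaks at chr15:100496909-100497230 with 7.47, chr15:100607774-100608057 with 6.63 and chr15:100443953-100444196 with 4.13. The last of these had the lowest score percentile of all member peaks, 1.52. Bin2 and Galnt6 are the protein-coding neighbours of Cela1 in the annotation.

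The Cel window, the only one set around a lipase gene, was empty in control replicate 1 and held 2 peaks in control replicate 2. At least 2 peaks were found in 13.7% of the 210 kb tiles of that list, and at least 1 in 20.6% of those of control replicate 1, so neither value stands far from the tiles. The peaks lay 265 bp apart at chr2:28485236-28485524, with a fold of 5.94, and chr2:28485790-28486008, with 6.32. Their summits had 14 and 15 reads, and the local input was at the genome-wide background. The nearest peak of control replicate 1 was 1110 kb outside the window.

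**Figure D2:**
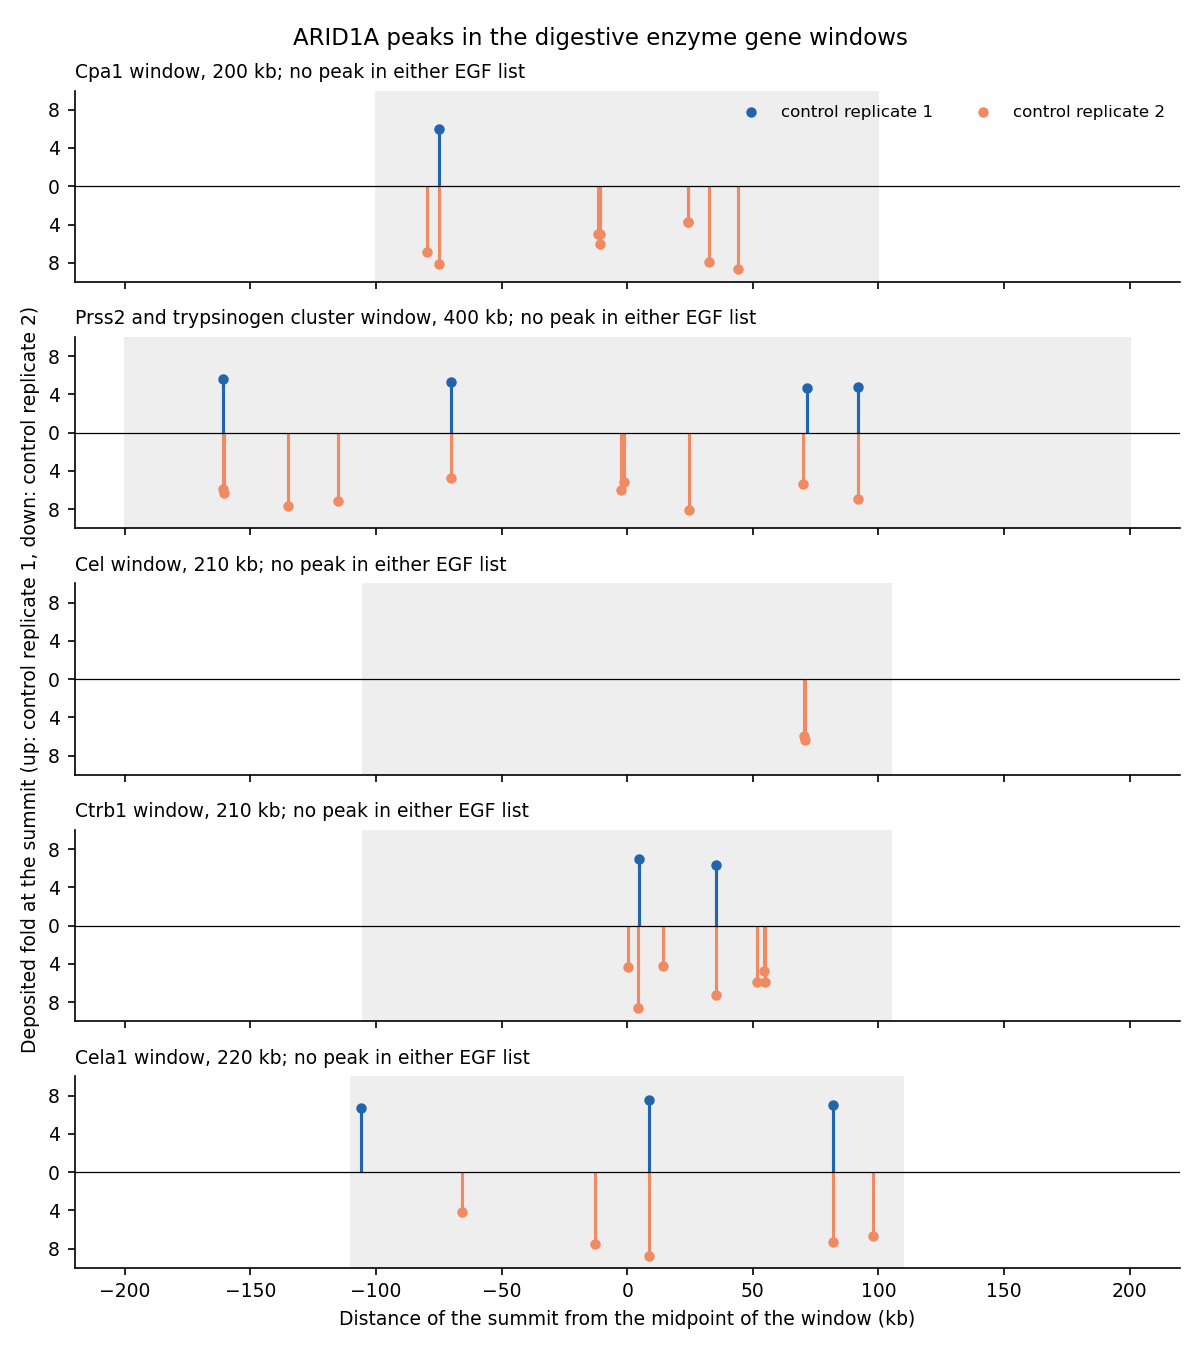
Position and deposited fold of the member peaks. The horizontal axis gives the distance of the summit from the midpoint of the window in kb, stems upward are peaks of control replicate 1 and stems downward those of control replicate 2, and grey marks the window. Regions called in both control lists have stems on both sides, such as the pair with folds of 7.50 and 8.72 at Cela1. Peaks that lie close without overlap can look alike, such as those with folds of 4.76 and 6.94 in the trypsinogen window, which are separate regions.

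The control lists shared 7 regions in the windows. There was 1 at Cpa1, 2 each in the trypsinogen, Ctrb1 and Cela1 windows, and 0 at Cel. Control replicate 1 had 7 of its 10 member peaks among them (70.0%, exact Clopper-Pearson interval 34.8% to 93.3%), against 71.3% of that whole list. Control replicate 2 had 7 of its 33 (21.2%, interval 8.98% to 38.9%), against 40.4% of its whole list. Of the other regions, 26 were called in control replicate 2 alone and 3 in control replicate 1 alone. The windows thus held 3.3 times as many peaks in control replicate 2 as in control replicate 1, and the whole list 1.76 times as many. The shared peaks had a median fold of 6.38 in control replicate 1 (n = 7) and 7.30 in control replicate 2 (n = 7), and the unshared ones 4.76 (n = 3) and 5.94 (n = 26). In 6 of the 7 shared regions the fold was higher in control replicate 2, and the exception was the region at chr6:41329725-41330065. The deposited fold carries a scale of its own in each list. At chr15:100591764-100592247 and chr6:41238879-41239174 the summit reads and local input recovered below were equal in both lists, yet the fold was higher in control replicate 2.

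Member peaks were of ordinary strength for their lists. Their median fold was 6.18 (control replicate 1) and 6.03 (control replicate 2), against 5.84 in each whole list. By score, 6 of the 10 and 17 of the 33 lay above the median of their list, and 1 in each list, the Cela1 region at chr15:100518253-100518677, lay above the 90th percentile. The windows differed among themselves: the median score percentile in control replicate 1 was 24.8 in the trypsinogen window, 53.8 at Cpa1 (1 peak), 73.4 at Ctrb1 and 80.4 at Cela1. In control replicate 2 it was 41.9 at Ctrb1, 49.9 in both the trypsinogen and the Cel window, 78.5 at Cela1 and 80.9 at Cpa1. The order of Ctrb1 and Cpa1 among the windows was not the same in both lists, while Cela1 was first or next to first in each.

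**Figure D3:**
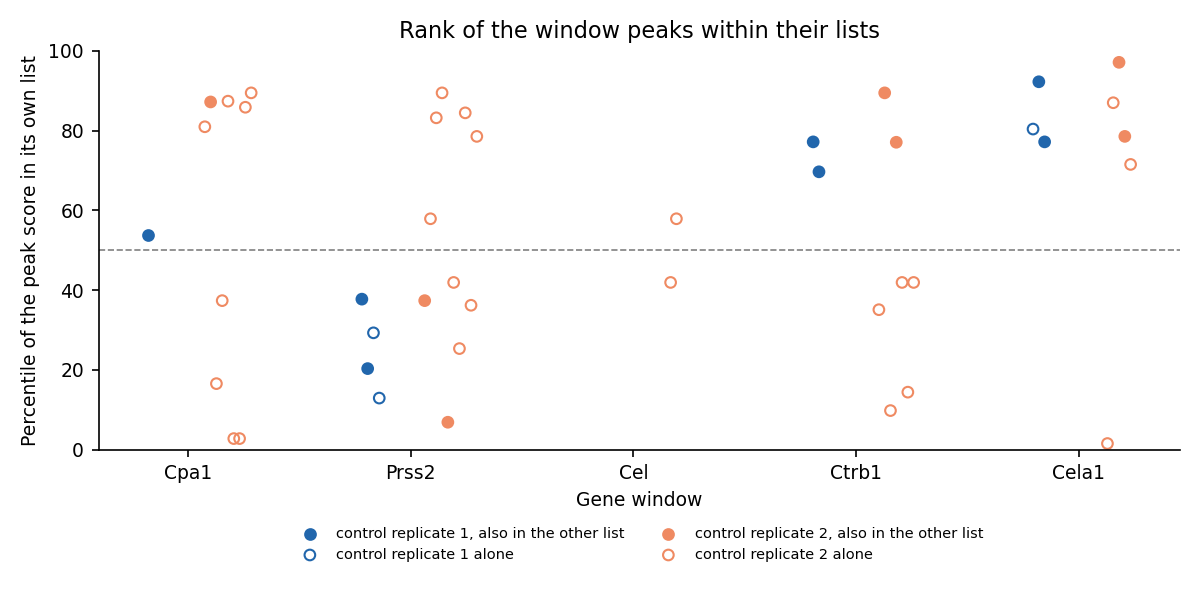
Percentile of the score of each member peak within its own list (vertical axis, 100 is the highest) by gene window; filled points overlap a peak of the other control list and open points do not. In control replicate 1 the Cela1 points sit at 77.2 or above, and the 4 trypsinogen points at 37.7 or below.

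Whole reads at the summit and the local input were recovered from the deposited fold and p of each peak. The ChIP libraries had 1.06 to 1.23 reads per 200 bp of genome. The member peaks rested on 13 to 33 reads at the summit in control replicate 1 and 11 to 37 in control replicate 2, with a median of 20 in each. The Cela1 region at chr15:100518253-100518677 had the most in both, 33 and 37. Its local input was 2.59 times the genome-wide background in both lists. Over that input the reads were 10.7 and 12.6 times enriched there. This was not the highest such ratio in either list: at chr8:114219190-114219928 in the Ctrb1 window it was 13.0 and 18.5. The region at chr15:100591764-100592247 had 22 reads in each list and 1.56 times the background input. At chr8:114219190-114219928 the counts were 20 and 21 reads, and at chr8:114250087-114250643 they were 20 in each. At chr6:30525047-30525347 they were 17 and 23, and at chr6:41238879-41239174 they were 14 in each. The shared regions thus differed by at most 6 reads between the control libraries. The median local input of the member peaks was 1.56 times the background in both lists, against 1.35 and 1.40 times over all peaks of control replicates 1 and 2. It ran highest, at 3.89 times, at chr6:30589151-30589429 in the Cpa1 window and at chr8:114215030-114215263 in the Ctrb1 window, both called in control replicate 2 alone. The part of high input in the number of member peaks was not tested.

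With EGF all 5 windows were empty. Both EGF lists held 0 peaks at Cpa1, in the trypsinogen cluster, at Cel, at Ctrb1 and at Cela1. Control libraries had 21.5 ± 16.3 peaks in the windows (SD, n = 2), which covered 6.72 ± 4.80 kb (SD, n = 2), and each EGF library had 0 peaks and 0 kb. The groups were apart in both measures. A two-sided exact permutation test gave p = 0.33 for each, which is its lowest possible value with 2 libraries a group. Without control replicate 2 the difference in number was −10 peaks, and without control replicate 1 it was −33.0 (EGF minus control).

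An empty window was the rule in the EGF lists. With 57 and 20 peaks in all, EGF replicates 1 and 2 held a peak in 0.453% and 0.159% of the 200 kb tiles and in 0.906% and 0.318% of the 400 kb tiles. At the density of these lists outside the windows, 1.24 Mb would hold 0.0280 and 0.00984 peaks. The nearest EGF peak to the Cpa1 and trypsinogen windows was 13.0 and 23.7 Mb away, and to those of Cela1, Ctrb1 and Cel 35.7, 41.1 and 89.8 Mb, all in EGF replicate 1. In EGF replicate 2 the nearest to Cela1 was the same distance away, and chromosomes 6, 2 and 8 had 0 peaks. Over the whole lists, 1.49% of the peaks of control replicate 1 and 0.844% of those of control replicate 2 overlapped a peak of either EGF list. In the windows it was 0 of 10 and 0 of 33. Taking 3 peaks as the most that a count of 0 allows, these limit the share to 30.0% and 9.09%. A loss in the windows beyond that of all control peaks was therefore not detectable with this number of peaks.

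More than 50% of the member peaks of each control list would not have reached the smallest p called in the EGF lists. Input background stood at 0.771 reads per 200 bp for the control lists and 0.506 for the EGF lists, and the smallest called −log10 p was 4.43 and 4.25 in control replicates 1 and 2 but 7.07 and 8.00 in EGF replicates 1 and 2. Each control peak was given the p it would have at the EGF input background with its reads and local input kept relative to the genome mean. Of the 33 member peaks of control replicate 2, 14 (42.4%) reached the smallest called p of EGF replicate 1 and 11 (33.3%) that of EGF replicate 2, against 34.0% and 21.5% of all peaks of the list. Of the 10 of control replicate 1, 4 (40.0%) and 1 (10.0%) did, against 33.0% and 20.6%. That 1 peak is the Cela1 region at chr15:100518253-100518677. The 11 of control replicate 2 were 5 at Cpa1, 3 in the trypsinogen window, 2 at Cela1 and 1 at Ctrb1, and none was called with EGF. Among all peaks that reached the value of EGF replicate 2, 5.55% in control replicate 1 overlapped an EGF peak, as did 3.21% in control replicate 2, so 0 of 1 and 0 of 11 lie near the share of all such peaks. Neither peak at Cel reached either value. A list's smallest called p is that of its weakest peak, and the threshold the authors set is not known here. Input depth and treatment cannot be told apart, because they change together between the groups.

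**Figure D4:**
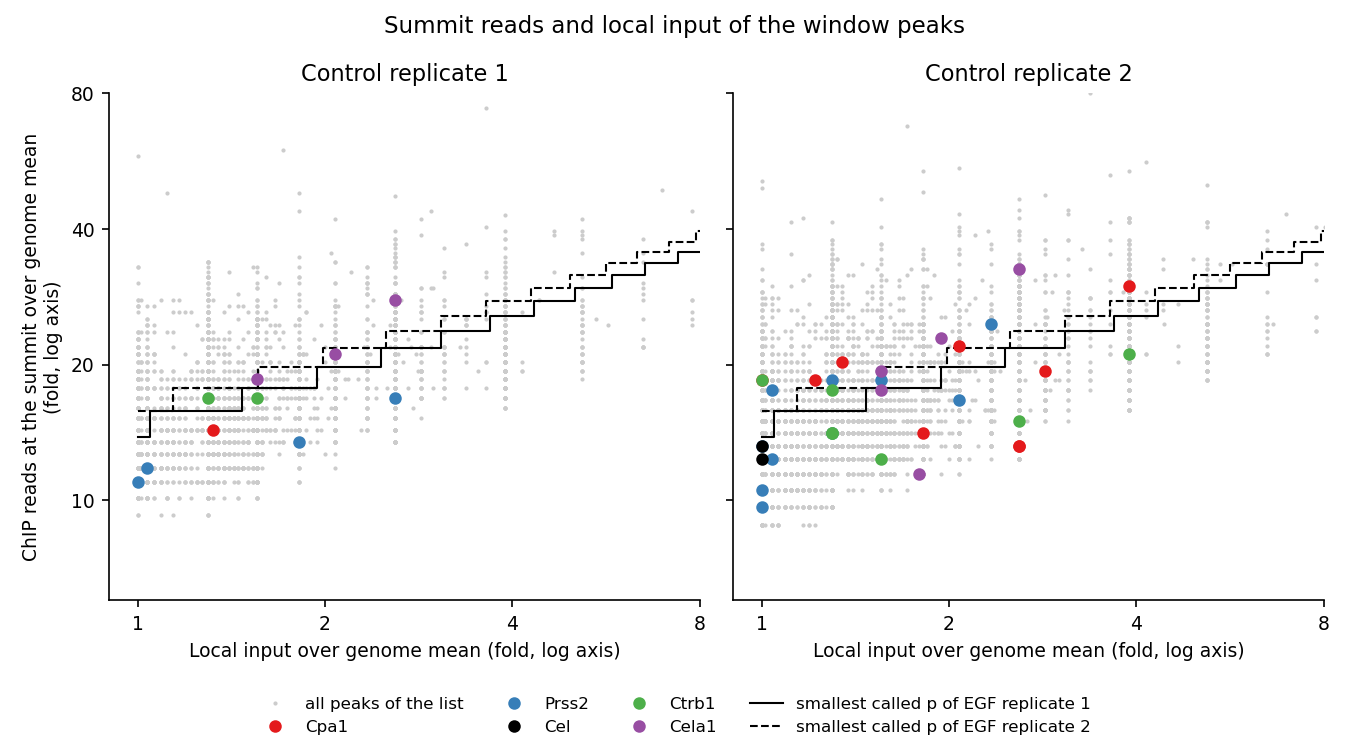
ChIP reads at the summit over the genome mean (vertical log axis) against local input over the genome-wide background (horizontal log axis) for all peaks (grey) and the member peaks (coloured by window) of the control lists; the axes end at 80 and 8, grey points beyond are not drawn, and member points of equal values lie on top of each other. The lines give the level that reaches the smallest called p of each EGF list. The Cela1 peak of 33 reads is the 1 member peak of control replicate 1 above both lines.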

How the data were processed

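ARID1A was profiled by ChIP-seq in 4 libraries of 266-6 cells. The submitters' processing notes name MACS2 2.1.1.20160309.0, deepTools 3.0.2, SAMtools, Bowtie2 2.3.4.2 and the build mm9, without options. Each library has 1 peak list deposited by the authors, in 10 columns: positions, a score, a fold (the ratio of summit to local background), and the −log10 p and −log10 q of the summit. Positions are printed counted from 1.

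Peaks were placed in the windows by an overlap of at least 1 bp (Python 3.11.15, pandas 2.3.3, SciPy 1.17.1). Reads at the summit were solved from fold and p, with 1 scale for each list, the upper Poisson tail and input counted in 1 kb and 10 kb windows for reads extended to 200 bp, which are inferred from the values. Exactly 1 solution within 2e-04 was found for 100% of the peaks. The method was tested on simulated data, but only with summits of more reads than many member peaks hold. Low read counts were therefore not covered by that test. Groups were compared by an exact two-sided permutation test. Promoters were aligned with Biopython 1.88. All member peaks are named or counted, by rule. Looking up 19 further enzyme genes for peaks needed an annotation of mm9 and was not done. The windows and lists were chosen with earlier results of these data known, and the recovery of reads and the transfer to EGF settings after the values were seen. The alternatives were q, merging, window width, placement by summit, a common p bound, tile start and chromosome, overlap definitions, a replicate block and leaving out libraries.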

Additional observations from a re-analysis of the deposited data

How the results depend on the processing

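Of 34 alternative values, 27 stayed within 1.5 times the difference they were set against, within the interval or within 1 SD between the control lists, and 7 moved. Of the 27, 6 could not move: the EGF libraries are all at 0, so leaving out either of them, or blocking, returns the same difference in number and length. For the same reason no difference here could reverse, and the tally is no measure of stability. The difference in number (EGF minus control) was −21.5 peaks. It was −13.0 with the central 50% of each window and −13.0 with 1 p bound in all lists, and −33.0 to −10 over the omissions of 1 library. The difference in length was −6.72 kb, −4.35 kb with the central 50% of each window and −10.1 to −3.33 kb over those omissions. Blocked on the replicate number, the differences were −21.5 peaks and −6.72 kb (exact permutation p = 0.5, the smallest for 2 pairs). Whether same-numbered libraries deviate together could not be checked, since the EGF libraries are all at 0 here. The mean density ratio of the control lists, 7.27, ran from 6.30 against the rest of the same chromosomes to 8.40 without the Cel window; merging peaks within 500 bp and leaving out each window were chosen after seeing the data. The share of the member peaks of control replicate 1 also called in control replicate 2 was 60% to 70.0%. Seen from control replicate 2 the share was 21.2%, and this side was not varied. The library of 33 member peaks sets the means, and shallow summits of 11 to 37 reads limit what a missing call shows.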
